A study of Mus musculus with 12 samples.

Results

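The genes described here are 40 mouse genes that write, erase or read acetylation on lysine, or that work in the complexes which do so, out of the 24985 genes counted in RNA of the dorsal hippocampus. They were picked by symbol for their known roles, with earlier results of these data known, and fall into 10 acetyltransferases (Crebbp, Ep300, Kat2a, Kat2b, Kat5, Kat6a, Kat6b, Kat7, Kat8 and Hat1), the 11 histone deacetylases Hdac1 to Hdac11, the 7 sirtuins Sirt1 to Sirt7, 7 readers (Brd1, Brd2, Brd3, Brd7, Brd8, Brd9 and Brpf1) and 5 co-regulators (Ncor1, Sin3a, Tada2a, Yeats2 and Dr1). Bulk RNA-seq of poly(A) RNA was performed on 12 wild-type C57Bl6/J mice, 3 in each of 4 groups. At 6 months of age the right dorsal hippocampus was injected with PBS or with 1 µg AD tau, which is pathological tau purified from human Alzheimer's disease brain. For the following 6 months the mice ate either LabDiet 5001 with Na-acetate added to 5% or a control chow described as equal in calories. The injected hippocampus was dissected 24 hours after a remote memory test, which mice of every group had undergone. Groups are named by injection and diet, as PBS control and PBS acetate for mice without tau and as Tau control and Tau acetate for mice with it. The design asked what tau did on each diet, what acetate did after each injection, and whether the effect of acetate depended on the injection.

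Acetyltransferases move the acetyl group of acetyl-CoA onto lysines of histones and other proteins, zinc-dependent deacetylases and NAD-dependent sirtuins remove it, and bromodomain, YEATS and related domains bind the acetylated lysine. Most of these enzymes act inside large complexes, such as SAGA and ATAC around Kat2a or Kat2b, NuA4 around Kat5, and NCoR, SIN3 and NuRD around the class I deacetylases. In the hippocampus histone acetylation is known for its link to activity-dependent transcription and memory, and acetate is a source of nuclear acetyl-CoA.

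Libraries held 12983233 to 20218340 counted reads, and the common biological coefficient of variation between mice of a group was 7.25%. The sequenced mice were described as representative animals of their groups. The labels give the sex as male. Xist, which coats a silenced X chromosome, nevertheless stood at 920 to 1340 CPM (counts scaled to a common library size) in each of the 12 libraries, while 4 Y-linked genes had 0 counts in every one, where a count of 0 allows up to 3 counts. Both values go against the male label. The study's methods give males for bulk RNA-seq and females for behavior. In PBS-injected mice the diet groups also differed in markers of hippocampal fields and of myelin. There, 4 of 5 CA1 markers were higher, 4 of 6 CA3 markers lower and 4 of 10 myelin and oligodendrocyte markers lower on acetate at an adjusted p below 0.1, with none of these markers at 0. Their summed levels were 452 to 589 CPM in PBS control and 718 to 946 CPM in PBS acetate mice for CA1, 1396 to 1607 against 1003 to 1267 CPM for CA3, and 7242 to 9333 against 4528 to 6236 CPM for myelin. In tau-injected mice all 10 myelin markers were higher on acetate, and on the acetate diet all 10 were higher after tau. In each of these comparisons 7 of them had an unadjusted p below 0.05 in edgeR and 0 passed the adjusted threshold. Marker values for tau on control chow are given with that comparison. The part of these markers in the differences described below was not tested. In bulk RNA, fewer cells of a type and less RNA per cell cannot be told apart.

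All 40 genes passed the filter on low counts that left 14742 genes, with 118 to 7453 reads per gene and mouse. Levels are compared between genes as CPM per kilobase of annotated exon, averaged over the 12 mice, and the exon length used here counts every annotated isoform. Among the acetyltransferases the highest level was that of Kat2a, the catalytic subunit of SAGA, at 19.2 CPM per kilobase, and the lowest that of Hat1, which acetylates newly made histone H4, at 4.65. Kat2a stood well above its paralog Kat2b (PCAF), which had 4.76 CPM per kilobase. Kat6a had 11.1 and its paralog Kat6b 4.72 CPM per kilobase. Ep300 and Crebbp, the paired coactivators p300 and CBP, were close together at 7.28 and 5.26 CPM per kilobase, with ranges over the mice of 6.38 to 8.03 and 4.47 to 5.87 that did not overlap.

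Hdac11, the only class IV deacetylase, had the highest level of all 40 genes, at 49.5 CPM per kilobase with a range of 45.9 to 53.2, and Hdac8 the lowest of the deacetylases at 2.68. Of the class I pair, Hdac2 had 21.5 and Hdac1 3.59 CPM per kilobase. Among the class IIa enzymes, which shuttle between nucleus and cytoplasm, Hdac5 led with 19.5 CPM per kilobase, followed by Hdac7 at 4.20, Hdac9 at 3.19 and Hdac4 at 3.11, and the ranges of Hdac9 (2.86 to 3.47) and Hdac4 (2.65 to 3.63) overlapped. Sirt2, a largely cytoplasmic sirtuin that deacetylates tubulin and is abundant in oligodendrocytes, was the highest sirtuin at 23.3 CPM per kilobase. Sirt5, a mitochondrial enzyme with strong desuccinylase activity, had 1.54 CPM per kilobase, the lowest value of the 40. Brd2 led the readers with 26.6 CPM per kilobase against 8.91 for its BET family paralog Brd3, and Brd8 was lowest at 5.86. Ncor1, the scaffold that holds Hdac3, led the co-regulators at 28.5 and Yeats2, the acetyl-lysine reader of ATAC, closed them at 3.32 CPM per kilobase.

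**Figure D1:**
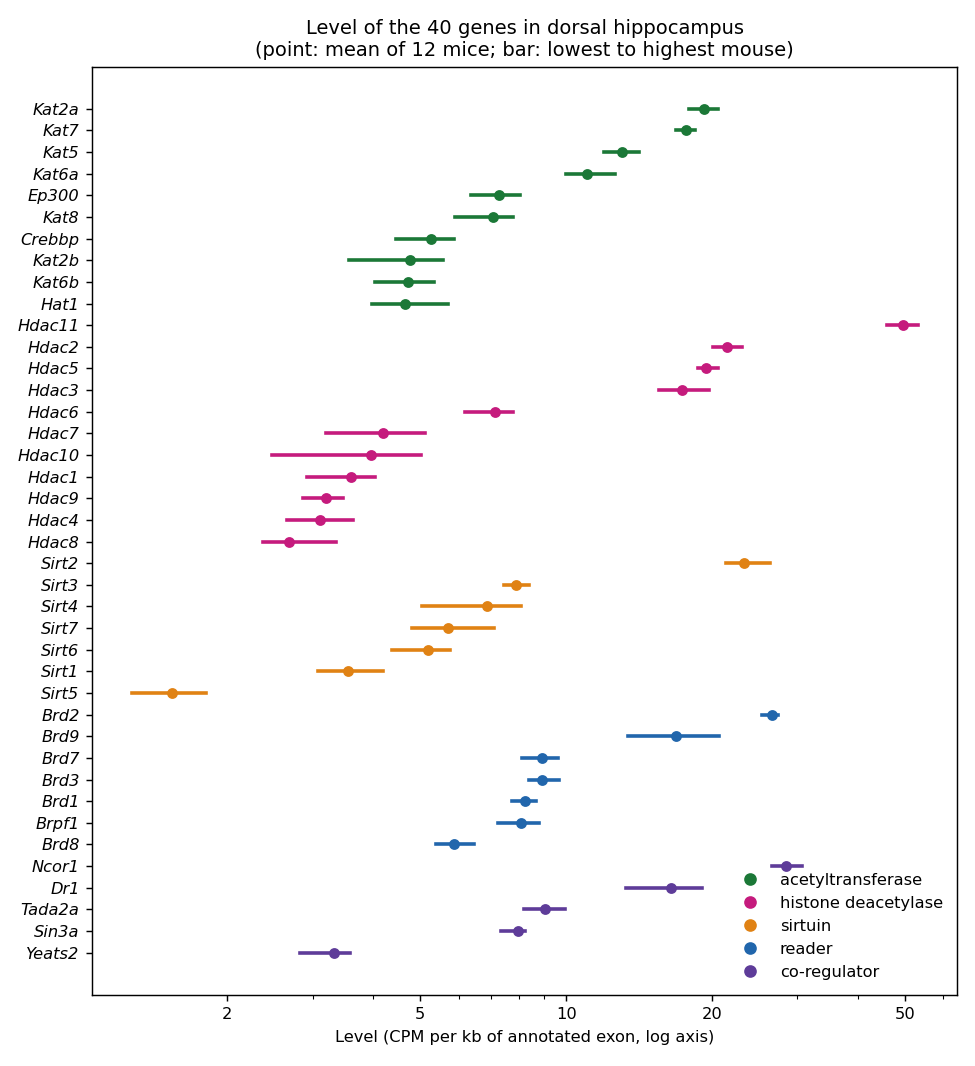
Mean level of each of the 40 genes over 12 mice, in CPM per kilobase of annotated exon on a log axis, ordered within class, with a bar from the lowest to the highest mouse. Levels ran from 1.54 for Sirt5 to 49.5 for Hdac11, and each class held genes of high and of low level.

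Levels varied little between mice of a group. The coefficient of variation within groups had a median of 5.86% over the 40 genes and ran from 2.05% for Brd2 to 16.3% for Hdac10, beside a median of 8.54% over all genes tested, whose levels are lower (median 23.4 CPM against 48.0 CPM). Summed over a class, the readers had 604 ± 13.8 CPM in PBS control, 650 ± 14.9 in PBS acetate, 620 ± 12.1 in Tau control and 622 ± 9.73 in Tau acetate mice (SD, n = 3). The deacetylases summed to 726 ± 19.0, 746 ± 2.90, 732 ± 10.1 and 724 ± 7.46 CPM in the same order, and the acetyltransferases to 606 ± 28.4, 619 ± 14.1, 623 ± 13.7 and 647 ± 19.5 CPM. The sirtuins summed to 255 ± 10.8, 255 ± 3.04, 244 ± 3.13 and 256 ± 8.68 CPM, and the co-regulators to 532 ± 1.28, 511 ± 8.82, 547 ± 21.5 and 529 ± 3.29 CPM. These class totals were not tested.

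Acetate in PBS-injected mice was the comparison with the most calls. On acetate 3 of the 40 genes were higher, namely the readers Brd9 and Brd8 and the acetyltransferase Kat6b, and 1 was lower, the transcriptional repressor subunit Dr1, at a Benjamini-Hochberg adjusted p below 0.1 in edgeR's quasi-likelihood test over all genes. Of all genes tested, 8.84% were called (3.99% higher and 4.85% lower), so the share of the 40 genes called was near the background. With 1 mouse left out, the number of the 40 genes called lay between 0 and 5. The number called over all genes fell steeply without PBS acetate mouse 2, as given at the end. Before adjustment 10 of the 40 genes had a p below 0.05, against 20.8% of all genes. The median log2 fold change was 0.05 over the 40 genes and 0.00 over all genes. Above 0 lay 27 of the 40 genes, beside 50.9% of all genes.

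Dr1, which with its partner Drap1 binds TBP and blocks assembly of the initiation complex and is also a subunit of ATAC, was the only one of the 40 genes called between the diets after both injections. Of all genes tested, 8.84% were called between the diets after PBS and 0.0611% after tau. The share called after both was not computed. In GRCm38 the gene occupies 108268897 to 108280526 of chromosome 5. Dr1 stood at 59.7, 64.4 and 64.1 CPM in the PBS control mice and 52.1, 51.4 and 56.3 CPM in the PBS acetate mice. In tau-injected mice it was 63.3, 60.9 and 66.4 CPM on the control diet and 49.1, 52.1 and 46.1 CPM on acetate. The 6 mice fed acetate thus lay between 46.1 and 56.3 CPM, below each of the 6 mice on control chow, which lay between 59.7 and 66.4 CPM. The share of all genes that separate the diets in this way was not computed. After PBS injection the acetate effect on Dr1 was a log2 fold change of -0.24 (SE 0.06, edgeR adjusted p = 0.0491), a change of -15.1%. After tau injection it was -0.37 (SE 0.07, edgeR adjusted p = 0.0676), a change of -22.6%, and Dr1 had the p of rank 4 among all genes tested. The diet effects after tau and after PBS differed by -0.13 on the log2 scale (SE 0.09, edgeR adjusted p = 0.597, 95% interval -0.35 to 0.08). In neither comparison did the call hold with every mouse left out. In PBS-injected mice the adjusted p rose to 0.116 without PBS control mouse 2, 0.158 without PBS control mouse 3, 0.159 without PBS acetate mouse 1 and 0.231 without PBS acetate mouse 2, while the log2 fold change stayed between -0.28 and -0.21. In tau-injected mice it rose to 0.112 and 0.121 without PBS acetate mice 1 and 2, to 0.219 and 0.198 without Tau control mice 2 and 3 and to 0.224 without Tau acetate mouse 1, with a log2 fold change between -0.41 and -0.32.

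The sequence just upstream of Dr1 is shown because Dr1 differed with diet after both injections. It is the 250 bases before the RefSeq start on GRCm38.p6, chr5:108268647-108268896 on the forward strand, written 5′ to 3′, and its capitals mark a CACGTG E box and 3 copies of the GC box GGGCGG, of which the first is on the reverse strand.
Dr1: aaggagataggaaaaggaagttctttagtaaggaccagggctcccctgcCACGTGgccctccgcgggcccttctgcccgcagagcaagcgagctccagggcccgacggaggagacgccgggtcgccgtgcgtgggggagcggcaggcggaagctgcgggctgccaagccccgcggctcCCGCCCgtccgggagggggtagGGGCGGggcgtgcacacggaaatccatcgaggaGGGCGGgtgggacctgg
With 25 CpG dinucleotides and a GC content of 71.2%, the window is a CpG-rich promoter. Promoters of this kind were common among the 40 genes. RefSeq starts were matched for 35 of them, all but Kat6a, Hdac1, Hdac3, Hdac10 and Brd8, and their 250-base windows had a median GC content of 61.6% and a median of 18 CpG, against 52.0% and 6 over 27025 genes, which include genes silent in the hippocampus. Motifs were searched on both strands. GGGCGG was present in 24 of the 35 windows (68.6%, against 32.9% of all promoters), CACGTG in 5 (14.3% against 6.05%), the ETS motif CCGGAAG in 5 (14.3% against 7.05%), CCAAT in 13 (37.1% against 34.5%) and TATAAA in 2 (5.71% against 13.0%). The palindromic NRF1 motif was found in 1 (2.86% against 0.781%) and the cyclic AMP response element TGACGTCA in 0 (against 1.62%). These are matches of letters, not sites of binding.

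**Figure D2:**
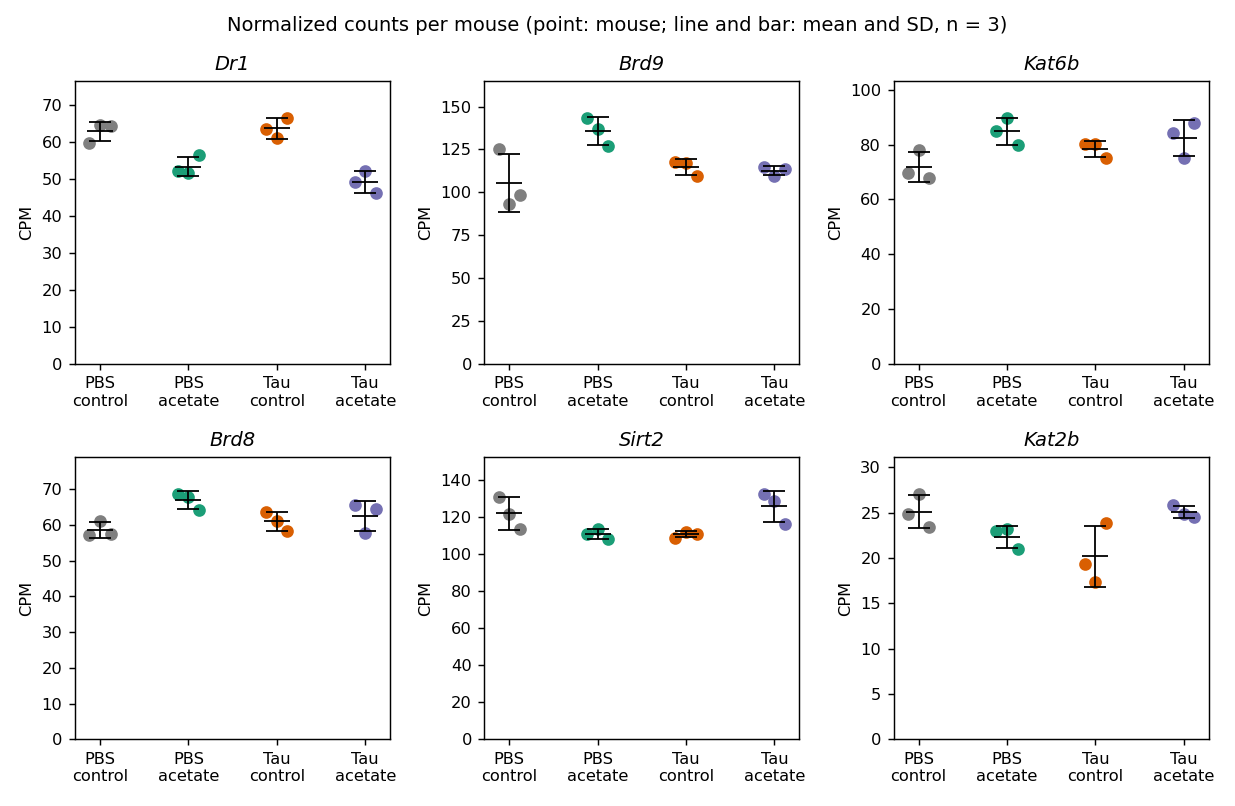
Level of 6 genes in each of the 12 mice, in CPM from 0, with the mean as a line and the SD as a bar for the 3 mice of each group. For Dr1 the acetate groups lie below both control-diet groups, the PBS acetate group is highest for Brd9, Kat6b and Brd8, and for Sirt2 and Kat2b the PBS control and Tau acetate means are the higher ones.

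Brd9, the bromodomain subunit that defines the non-canonical BAF remodeling complex, had 125, 93.2 and 98.4 CPM in the PBS control mice and 143, 137 and 127 CPM in the PBS acetate mice. The groups did not overlap, although PBS control mouse 1 came within a few CPM of the lowest mouse on acetate. The log2 fold change was 0.36 (SE 0.08, edgeR adjusted p = 0.0357), a rise of 28.4%. The call was lost without PBS control mouse 3 (adjusted p = 0.131), PBS acetate mouse 1 (0.112) or PBS acetate mouse 2 (0.157), and without PBS control mouse 1 the log2 fold change was 0.51. In tau-injected mice Brd9 had 117, 117 and 109 CPM on control chow and 115, 110 and 113 CPM on acetate, so that the diets overlapped. Brd9 lies on chromosome 13 from 73937811 to 73960895, directly beside Trip13, and only 26 bases separate their annotated exons. That gap is printed because it is the sequence upstream of Brd9 outside any exon, at chr13:73937785-73937810 of GRCm38.p6 on the forward strand, 5′ to 3′, with the ETS motif CCGGAAG in capitals.
Brd9: gccccaccctgacCCGGAAGcacttg
The full 250-base window of Brd9 reaches into exons of Trip13 and holds GGGCGG as well.

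Kat6b (MORF), which acetylates histone H3 in a complex scaffolded by Brpf1 or its relatives, had 69.8, 78.0 and 67.8 CPM in PBS control and 85.0, 89.8 and 79.8 CPM in PBS acetate mice, without overlap. Its log2 fold change was 0.24 (SE 0.07, edgeR adjusted p = 0.0574), a rise of 18.3%. Without PBS control mouse 1 or 3 the adjusted p was 0.139 and 0.209, and without PBS acetate mouse 1 or 2 it was 0.135 and 0.249. In tau-injected mice Kat6b overlapped between the diets (log2 fold change 0.07, SE 0.07, edgeR adjusted p = 0.765). Kat6b has annotated processed pseudogenes, which could share reads with it. The gene spans 21481434 to 21672478 on chromosome 14, and the 250 bases before its RefSeq start are shown because they hold 8 matches to GGGCGG, more than the other windows printed here. The window is chr14:21499520-21499769 of GRCm38.p6 on the forward strand, 5′ to 3′, within an intron of a longer annotated transcript. Capitals mark the matches, the first of them on the reverse strand and a pair of them overlapping in GGGCGGGCGG.
Kat6b: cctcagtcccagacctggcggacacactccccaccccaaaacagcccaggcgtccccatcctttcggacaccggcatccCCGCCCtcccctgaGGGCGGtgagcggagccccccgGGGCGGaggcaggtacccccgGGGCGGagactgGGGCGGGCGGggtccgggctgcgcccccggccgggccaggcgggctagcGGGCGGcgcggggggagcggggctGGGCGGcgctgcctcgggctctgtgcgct
The window holds 27 CpG at a GC content of 78.8%.

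Brd8, the bromodomain subunit of the NuA4 complex around Kat5, had 57.3, 61.1 and 57.4 CPM in PBS control and 68.8, 67.9 and 64.2 CPM in PBS acetate mice. These groups did not overlap either. The log2 fold change was 0.19 (SE 0.06, edgeR adjusted p = 0.0864), a rise of 14.4%, and the adjusted p was 0.186 and 0.233 without PBS control mouse 1 or 3 and 0.217 and 0.257 without PBS acetate mouse 1 or 2. In tau-injected mice Brd8 overlapped between the diets (log2 fold change 0.04, SE 0.06, edgeR adjusted p = 0.894). Brd8 lies on chromosome 18 from 34598615 to 34624601. In PBS-injected mice 4 of 11 deacetylases and 2 of 7 sirtuins had an unadjusted p below 0.05, and none passed the threshold in edgeR. The deacetylase nearest to it was Hdac7, a class IIa enzyme, with 24.7, 29.8 and 26.3 CPM in PBS control and 33.4, 32.2 and 34.6 CPM in PBS acetate mice. Its groups did not overlap, with a log2 fold change of 0.31 (SE 0.12, edgeR adjusted p = 0.130). The fit gave Hdac7 an adjusted p of 0.0449 when only the 6 compared mice entered, and of 0.0779, 0.0863, 0.0820 and 0.0982 without Tau control mouse 2, Tau acetate mouse 1, Tau acetate mouse 2 and PBS control mouse 2. The sirtuin with the smallest p was Sirt2, described with the interaction below, at -0.14 (SE 0.06, edgeR adjusted p = 0.201). In all, 15 of the 40 genes had diet groups that did not overlap in PBS-injected mice, 11 higher and 4 lower on acetate, beside 26.3% of all genes (13.1% higher and 13.2% lower). Those not named so far were Hdac3, Hdac6, Sirt4, Sirt5, Sirt6, Brpf1 and Sin3a, higher on acetate, and Kat2b, Hdac4 and Ncor1, lower.

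Of 93 further subunits and readers of the same complexes, 2 were higher and 3 lower on acetate in PBS-injected mice, beside 3.99% and 4.85% of all genes. In edgeR 0 passed the threshold in each of the other comparisons. There, the genes with an unadjusted p below 0.05 numbered 8 for tau on control chow (against 9.65% of all genes), 3 for acetate after tau (10.9%), 6 for tau on acetate (10.3%) and 4 for the interaction (13.0%). Chd3, a remodeler of NuRD, had a log2 fold change of 0.21 (SE 0.06, edgeR adjusted p = 0.0469). Gatad2a, another NuRD subunit, had -0.22 (SE 0.07, edgeR adjusted p = 0.0818), and Jade2, a scaffold of Kat7 complexes, 0.21 (SE 0.07, edgeR adjusted p = 0.0893). Chd3 and Gatad2a, both of NuRD, thus moved in opposite directions.

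In tau-injected mice Dr1 was the only one of the 40 genes called between the diets (lower), where 0.0611% of all genes were called and 0.0204% were called lower. DESeq2 on all 12 mice called the same gene alone (adjusted p = 0.00197), and edgeR on the 6 compared mice called 0 of the 40 (Dr1 adjusted p = 0.175). Before adjustment 3 of the 40 genes had a p below 0.05, against 10.9% of all genes, and the median log2 fold change over the 40 was 0.00. Kat2b, the acetyltransferase with the smallest p, had 19.3, 17.4 and 23.9 CPM in Tau control and 25.9, 24.9 and 24.5 CPM in Tau acetate mice, groups that did not overlap (log2 fold change 0.32, SE 0.10, edgeR adjusted p = 0.276). Hdac2, a catalytic subunit of SIN3, NuRD and CoREST complexes, had 103, 96.0 and 98.8 CPM in Tau control and 89.8, 93.2 and 94.4 CPM in Tau acetate mice. Its log2 fold change was -0.10 (SE 0.05, edgeR adjusted p = 0.495). Brpf1, the scaffold of Kat6 complexes, had 52.6, 55.5 and 58.8 CPM in Tau control and 56.3, 48.9 and 54.5 CPM in Tau acetate mice, which overlapped (log2 fold change -0.06, SE 0.07, edgeR adjusted p = 0.793). Diet groups did not overlap for 4 genes that were higher on acetate (Kat2b, Kat6a, Sirt2 and Sin3a) and 3 that were lower (Hdac2, Sirt1 and Dr1), beside 14.4% of all genes (6.66% higher and 7.77% lower).

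**Figure D3:**
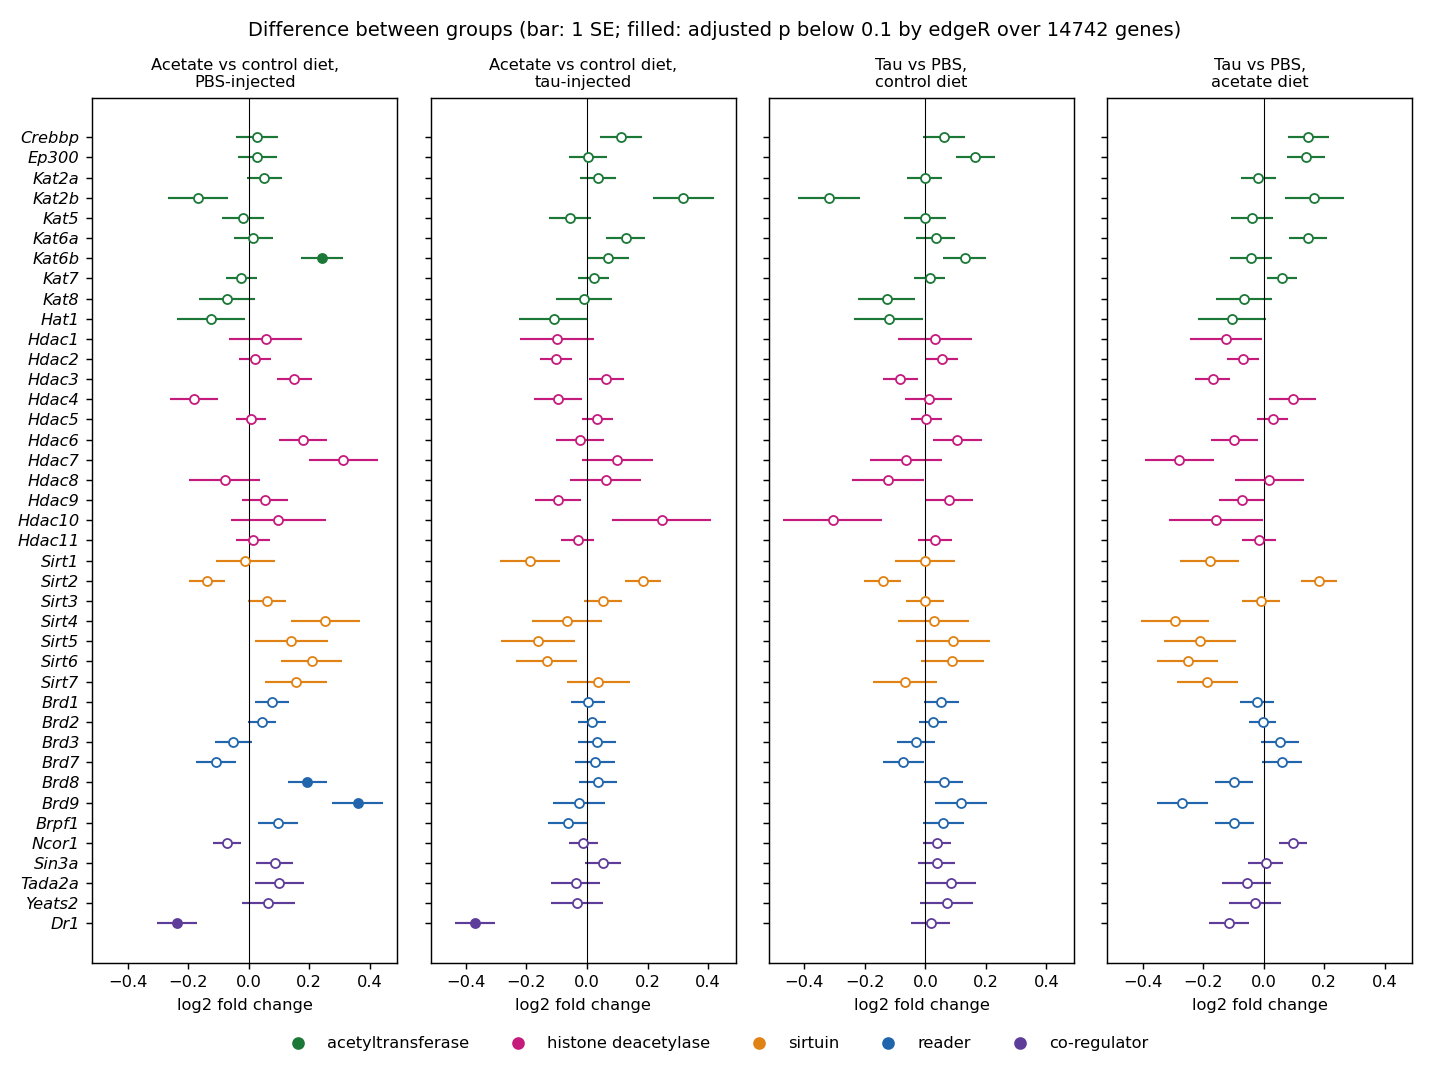
Log2 fold change of each of the 40 genes in the 4 comparisons between groups, with a bar of 1 SE and filled points at an edgeR adjusted p below 0.1 over 14742 genes. Filled points are Kat6b, Brd8, Brd9 and Dr1 for acetate in PBS-injected mice and Dr1 for acetate in tau-injected mice, and the 40 genes lay between -0.37 and 0.36.

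After tau injection on control chow 0 of the 40 genes passed the threshold in edgeR's quasi-likelihood test or in DESeq2, beside 0.0136% of all genes in edgeR, and 3 of them (Ep300, Kat2b and Sirt2) had an unadjusted p below 0.05, against 9.65% of all genes. The log2 fold changes lay between -0.32 and 0.17 with a median of 0.03, and 38 of the 40 genes had a 95% interval inside a bound of 0.5 on either side of 0, so that larger differences lay outside the interval for these. Kat2b had 24.9, 27.1 and 23.4 CPM in PBS control and 19.3, 17.4 and 23.9 CPM in Tau control mice. Tau control mouse 3 overlapped the PBS control mice (log2 fold change -0.32, SE 0.10, edgeR adjusted p = 0.351). Hdac10, a polyamine deacetylase, had 15.5, 12.6 and 13.7 CPM in PBS control and 12.3, 8.36 and 13.4 CPM in Tau control mice. This overlapping pair of groups gave -0.31 (SE 0.16, edgeR adjusted p = 0.602), with the widest SE of the 40 genes. Brd9 overlapped between PBS control and Tau control mice at the levels given above (0.12, SE 0.09, edgeR adjusted p = 0.726). Tada2a, an adaptor subunit of ATAC, had 27.0, 24.3 and 26.1 CPM in PBS control and 26.5, 27.9 and 27.6 CPM in Tau control mice, which also overlapped (0.08, SE 0.08, edgeR adjusted p = 0.811). Groups did not overlap for Ep300 and Sirt5, higher after tau, and for Hdac3 and Sirt2, lower, which is 4 of the 40 genes beside 13.5% of all genes (6.61% higher and 6.84% lower). All 10 myelin and oligodendrocyte markers were lower after tau, without overlap and with an unadjusted p below 0.05, while 0 passed the threshold. They summed to 7242 to 9333 CPM in PBS control and 4797 to 5822 CPM in Tau control mice. All 5 CA1 markers were higher, 3 of them with an unadjusted p below 0.05 and 0 past the threshold. Of 6 CA3 markers 5 were lower and 1 higher, with 1 at an unadjusted p below 0.05 and 0 past the threshold. Of 4 oligodendrocyte precursor markers 2 were higher and 2 lower, with 3 at an unadjusted p below 0.05 and 0 past the threshold. The part of these markers in the differences given here was not tested.

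Between tau and PBS on the acetate diet 0 of the 40 genes passed the threshold in edgeR and in DESeq2, beside 0.136% of all genes in edgeR, with 9 genes at an unadjusted p below 0.05, against 10.3% of all genes. The median log2 fold change was -0.04 and 27 genes lay below 0, beside 7541 of the 14742 genes tested. This comparison shares the PBS acetate mice with that of the diets in PBS-injected mice, so the 27 genes above 0 there and the 27 below 0 here are not separate observations. Brd9 was the reader with the smallest p, at -0.27 (SE 0.08, edgeR adjusted p = 0.275), and the Tau acetate mice did not overlap the PBS acetate mice. Hdac3, the catalytic subunit of NCoR complexes, had 76.8, 75.2 and 79.9 CPM in PBS acetate and 71.7, 64.4 and 70.0 CPM in Tau acetate mice, also without overlap (-0.17, SE 0.06, edgeR adjusted p = 0.304). Kat6a (MOZ) had 94.7, 104 and 97.4 CPM in PBS acetate and 110, 103 and 116 CPM in Tau acetate mice, which overlapped (0.15, SE 0.06, edgeR adjusted p = 0.438). Ncor1 had 341, 359 and 342 CPM in PBS acetate and 369, 378 and 367 CPM in Tau acetate mice, with no overlap (0.10, SE 0.05, edgeR adjusted p = 0.485). In all, 5 genes were higher and 6 lower without overlap, beside 16.2% of all genes (7.51% higher and 8.71% lower).

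The effect of acetate after tau minus that after PBS passed the threshold for 1 of the 40 genes, Sirt2, which was higher, beside 1.56% of all genes (1.11% higher), and 4 (Kat2b, Sirt2, Sirt6 and Brd9) had an unadjusted p below 0.05, against 13.0% of all genes. Sirt2 lies on chromosome 7 from 28766735 to 28788661. Its levels were 131, 121 and 113 CPM in PBS control, 111, 114 and 108 CPM in PBS acetate, 109, 112 and 111 CPM in Tau control and 132, 128 and 116 CPM in Tau acetate mice. PBS control and Tau acetate mice were the higher ones, and within each injection the diets moved in opposite directions, with an overlap at 113 to 114 CPM after PBS and none after tau. The log2 fold change of acetate was -0.14 after PBS (SE 0.06, edgeR adjusted p = 0.201) and 0.19 after tau (SE 0.06, edgeR adjusted p = 0.280). Tau against PBS gave -0.14 on control chow (SE 0.06, edgeR adjusted p = 0.469) and 0.18 on acetate (SE 0.06, edgeR adjusted p = 0.284), in fits that share these mice. None of the 4 single differences passed, while the difference between the diet effects was 0.32 (SE 0.09, edgeR adjusted p = 0.0909). This call held in only 2 of the 12 fits that left out a mouse, those without PBS control mouse 3 or Tau acetate mouse 3. Without each of the others in turn the adjusted p lay between 0.109 (without Tau control mouse 3) and 0.236 (without Tau acetate mouse 1), and the difference stayed between 0.27 and 0.37 over all 12. DESeq2 called it as well (adjusted p = 0.0423).

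Myelin markers moved with Sirt2. All 10 had a positive difference between the diet effects, with a median of 1.11 on the log2 scale, and 0 passed the threshold in edgeR while all 10 had an unadjusted p below 0.05. Their summed levels in the order of the mice above were 9333, 7701 and 7242 CPM in PBS control, 6236, 5123 and 4528 CPM in PBS acetate, 4946, 4797 and 5822 CPM in Tau control and 8791, 7819 and 5464 CPM in Tau acetate mice. None of the 10 markers was at 0, and their part in the difference for Sirt2 was not tested. Within groups the ranks of the mice for myelin and for Sirt2 matched in PBS control and in Tau acetate mice but not in PBS acetate or in Tau control mice. Among the Tau control mice, mouse 2 was the lowest for myelin and the highest for Sirt2. Choroid plexus markers summed to 477 CPM in Tau acetate mouse 3, against 64.4 to 202 CPM in the other mice. For the difference between the diet effects, 1 of 5 choroid plexus and 1 of 6 astrocyte markers passed the threshold in edgeR, both higher. An unadjusted p below 0.05 in edgeR was seen for 3 of 4 oligodendrocyte precursor markers and 3 of 5 CA1 markers. All 6 CA3 markers had a positive difference, 2 of them with an unadjusted p below 0.05. The part of these other markers in the difference for Sirt2 was not tested either. The 94 bases between the exons of Sirt2 and those of Nfkbib, which lies on the opposite strand and overlaps Sirt2 at an annotated exon, are shown as the upstream sequence of Sirt2 free of exons. They lie at chr7:28766641-28766734 of GRCm38.p6 on the forward strand, 5′ to 3′, and hold none of the 7 motifs, so that no letter is in capitals.
Sirt2: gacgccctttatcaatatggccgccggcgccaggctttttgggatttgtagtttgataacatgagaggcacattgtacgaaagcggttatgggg
This stretch holds 6 CpG. The full 250-base window of Sirt2 reaches into annotated exons and holds GGGCGG and CCAAT, and is counted with both above. Reads of Sirt2 and Nfkbib can be told apart only if the library kept the strand, and the labels and the study's methods name different kits.

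**Figure D4:**
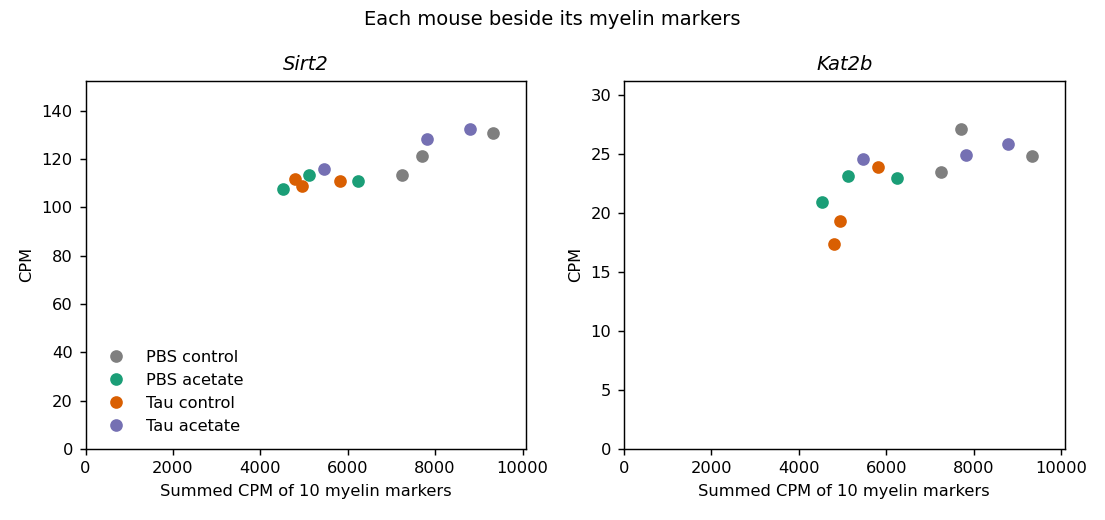
Level of Sirt2 and Kat2b in each of the 12 mice, in CPM, against the summed CPM of 10 myelin markers in the same mouse, colored by group. For Sirt2 and for Kat2b the same 4 mice have the highest levels, 2 PBS control and 2 Tau acetate, and these also have the 4 highest myelin sums. Kat2b is at 24.5 CPM in Tau acetate mouse 3, whose myelin sum is 5464 CPM. In PBS control mouse 3 it is at 23.4 CPM, with a myelin sum of 7242 CPM.

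For Kat2b, as for Sirt2, the means of PBS control and Tau acetate mice lay above those of the other groups. Within groups the ranks of the mice for myelin and for Kat2b matched after tau but not after PBS, on either diet. The part of myelin markers in the differences for Kat2b was not tested. Kat2b lies on chromosome 17 from 53566861 to 53672720 and had 25.1 ± 1.85 CPM in PBS control, 22.3 ± 1.21 in PBS acetate, 20.2 ± 3.34 in Tau control and 25.1 ± 0.695 in Tau acetate mice (SD, n = 3). The difference between its diet effects was 0.48 (SE 0.14, edgeR adjusted p = 0.131), past the threshold in DESeq2 (0.0999) and without Tau control mouse 3 (0.0363). Brd9 had -0.39 (SE 0.12, edgeR adjusted p = 0.167), past it in DESeq2 (0.0894) and without PBS control mouse 1 (0.0299). The deacetylase with the smallest p was Hdac6, which deacetylates tubulin in the cytoplasm, with 38.5, 39.2 and 38.7 CPM in PBS control, 45.3, 45.1 and 41.5 in PBS acetate, 39.1, 43.6 and 42.7 in Tau control and 44.8, 35.9 and 42.4 CPM in Tau acetate mice. The diets did not overlap after PBS and overlapped after tau, and the difference between the diet effects was -0.20 (SE 0.11, edgeR adjusted p = 0.465). For 30 of the 40 genes the 95% interval of this difference lay inside 0.5 on either side of 0, and the bounds over all 40 reached from -0.70 to 0.81.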

How the data were processed

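The authors aligned reads to GRCm38 with STAR, processed alignments with SAMtools 1.1 and used HTSeq 0.9.1 to count reverse-strand reads over exons, gene by gene. They deposited raw counts per gene, 1 column per mouse. The annotation release is not given in the sources used here. The labels name a directional library kit and the methods another kit number, and which was used was not settled. Exons of 12 of the 40 genes overlap a gene on the opposite strand, whose reads could be mixed in if strand was not kept.

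From the counts, genes were kept by filterByExpr (minimum count 10, minimum total 15), normalized by TMM and fitted with 1 mean per group over all 12 mice in edgeR 4.0.16 (robust quasi-likelihood F test, R 4.3.3, 8 residual degrees of freedom). The Benjamini-Hochberg adjustment covered all 14742 genes, with a threshold of 0.1. The 95% intervals take the SE and the t distribution with those degrees of freedom. CPM are TMM-normalized. Functions were tested on simulated data. Coordinates and exon lengths come from GENCODE and promoters from RefSeq. No pair of replicates was close enough to be 1 library counted again. Replicate numbers were not taken as pairs of mice, on the correlations given at the end.

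The 40 genes, the lists and the motifs were chosen with earlier results of these data known. Values in every mouse are given for genes past the threshold and, in each class and comparison, for the gene with the smallest p. Levels are given for the highest and lowest gene of each class and for paralogs. Of the other complex genes, the 3 called with the smallest p are named. Alternatives were DESeq2 1.42.0 on all 12 mice and its size factors, no filter, edgeR on the compared mice alone, a stricter threshold of 0.05, blocks by replicate number, and each mouse left out in turn.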

Additional observations from a re-analysis of the deposited data

Results flagged for a closer look

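For Sirt2 the interaction test of edgeR gave a difference between the acetate effects after tau and after PBS of 0.32 on the log2 scale (SE 0.09, adjusted p = 0.0909), with a diet effect of 0.19 after tau and -0.14 after PBS. It is listed because a difference between groups passed a test of the difference itself. The call held in 2 of the 12 fits that left out a mouse (adjusted p 0.0297 to 0.236) and was lost at an adjusted p below 0.05. All 10 myelin markers had a positive difference as well, with a median of 1.11 on the log2 scale, and 0 passed the threshold. Of other markers, 1 of 6 for astrocytes and 1 of 5 for choroid plexus passed it, both higher. The part of these markers was not tested.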

How the results depend on the processing

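For acetate in PBS-injected mice, the number of the 40 genes called went from 4 to 2 at an adjusted p below 0.05, to 3 with the replicate block and to 5 on the compared mice alone, and lay between 0 and 5 with 1 mouse left out. For acetate in tau-injected mice it went from 1 to 0 at an adjusted p below 0.05 and on the compared mice alone, and lay between 0 and 1 with 1 mouse left out. For the interaction it went from 1 to 3 in DESeq2 (Brd9, Kat2b and Sirt2), to 2 with the replicate block (Brd9 and Sirt2) and to 0 at an adjusted p below 0.05, and lay between 0 and 1 with 1 mouse left out. For both tau comparisons it was 0 in every alternative run. The cause of these changes was not tested, and the fits that left out mice also held fewer mice.

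The 26 named differences were computed 463 times under the alternatives. None reversed its sign, 36 lost a call and 10 gained one. At the stricter threshold the main fit was used again, so no sign could change there. The other alternatives reused all or most of the same counts, so an unchanged sign is not a separate observation. Mice with the same replicate number had correlations of their deviations between -0.105 and 0.144, with 2 of 18 pairs over 0.1, and 3 of 12 mice correlated best with their own number, so the numbers were not taken as pairs. With the replicate block Brd8 lost its call for acetate in PBS-injected mice (adjusted p = 0.103) and Brd9 gained one for the interaction (0.0703), and no other named call changed.

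Over all genes, the number called for tau on control chow was 2, and 86 in DESeq2, 35 on the compared mice alone and 9 with the replicate block. For acetate in PBS-injected mice it was 1303, and 541 at an adjusted p below 0.05 and as low as 15 without PBS acetate mouse 2. For acetate in tau-injected mice it was 9, and 176 in DESeq2 and 56 without a filter. For tau on acetate it was 20, and 121 in DESeq2 and 37 without a filter. For the interaction it was 230, and 438 in DESeq2, 349 with the replicate block and 43 at an adjusted p below 0.05.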
